A study of Homo sapiens with 27 samples.

Results

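Ribosome footprints of fibroblasts labelled as senescent after irradiation were compared with those of fibroblasts labelled as quiescent by contact inhibition. The comparison rests on 6 of the 27 libraries of the series, chosen by their titles and assay: 3 Ribo-seq libraries of each state. Every library came from wild-type IMR90 cells, diploid fibroblasts cultured from human fetal lung, grown in high-glucose medium with 10% serum. The irradiated cells had received 15 Gy of ionizing radiation and were harvested 10 days later. The quiescent cells are labelled as contact-inhibited, and the labels do not say how long they were held at confluence. The other libraries are cycling cells, cells made senescent with etoposide and cells treated with thapsigargin. Nothing in the labels says whether replicates came from separate cultures, so p-values measure only the spread between libraries. For Ribo-seq that spread was estimated over all 14 libraries of the assay, not over the 6 compared alone.

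Ribo-seq sequences the mRNA fragments that translating ribosomes shield from RNase, so a gene's count reflects both its mRNA and the ribosomes on it. Senescent cells have left the cell cycle for good, usually with an active DNA damage response, while contact-inhibited cells are arrested but can return to division. Senescence of lung fibroblasts is known for high p21, loss of lamin B1, enlarged lysosomes and the release of matrix enzymes and inflammatory factors. Quiescent fibroblasts are known to keep making extracellular matrix.

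The quiescent libraries held 18934077, 17508672 and 19996104 gene counts and the irradiated ones 5556293, 2652013 and 3451589; the shallower irradiated libraries limit the precision of low genes. Levels are given as CPM, counts scaled to library size, after TMM scaling, under which a typical gene shows no change between groups. The edgeR quasi-likelihood test on all 14 Ribo-seq libraries supplied the fold changes (irradiated over quiescent, log2, ± SE), and a gene was called at a Benjamini-Hochberg adjusted p under 0.05 over the 11777 protein-coding genes tested. Markers of fibroblasts were abundant in all 6 libraries, with a summed level of 18425 to 39452 CPM in quiescent and 24069 to 26320.0 CPM in irradiated cells. Markers of blood cells summed to 0.0577 to 0.614 and 0.351 to 1.13 CPM, with 4 of 12 (CD3D, CD3E, HBA1 and TYROBP) at 0 counts in all 6 libraries. Endothelial markers summed to 15.6 to 32.5 and 27.7 to 29.8 CPM. Epithelial markers summed to 102 to 123 and 89 to 104 CPM, with 5 of 15 at 0 counts (the lung markers NKX2-1, SCGB1A1 and SFTPC, and the basal keratins KRT5 and KRT14) and nearly all of the sum in keratins of simple epithelia.

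Quiescent replicate 1 stood apart from the other quiescent libraries. Among 8839 genes with at least 10 CPM in some quiescent library, 1091 lay at least 2-fold below the mean of the other replicates in replicate 1, and 0 lay 2-fold above it. The same counts were 11 and 11 for replicate 2, and 3 and 370 for replicate 3. Genes low in replicate 1 included those for collagens, whose summed level was 12178, 28853 and 39467 CPM in quiescent replicates 1 to 3, and mitochondrially encoded proteins, at 170.0, 739 and 649.6 CPM. The irradiated libraries gave 13371, 15273 and 14130.0 CPM for the collagens and 616, 450.5 and 438 CPM for the mitochondrially encoded proteins. RNA-seq showed the same library apart, with collagens at 5425, 12071 and 11685 CPM and mitochondrially encoded genes at 389, 1724 and 1514 CPM in quiescent replicates 1 to 3. Results that rest on this library are given with and without it below.

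**Figure D1:**
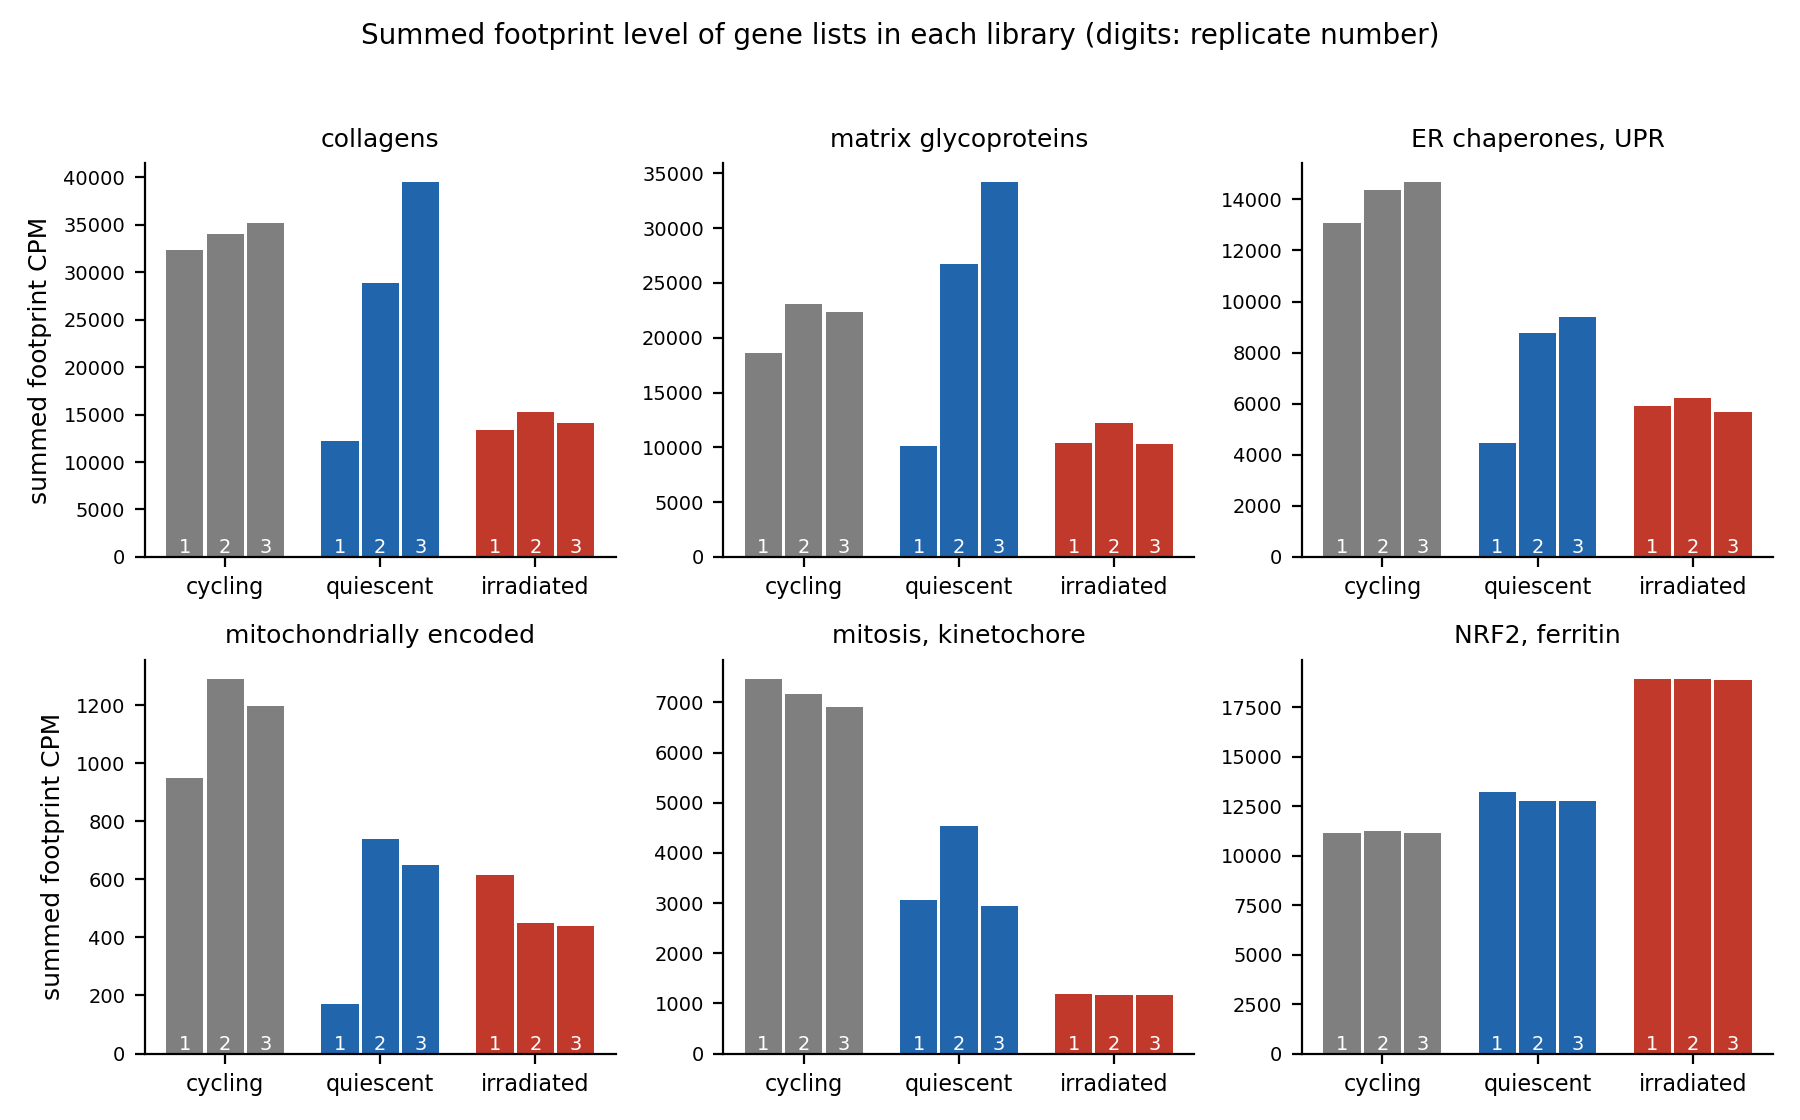
Summed footprint level (CPM) of 6 gene lists in each cycling, quiescent and irradiated library, with the replicate number at the foot of each bar. Quiescent replicate 1 is low for collagens, matrix glycoproteins, endoplasmic reticulum chaperones and mitochondrially encoded genes, while the lists of mitosis and of NRF2 and ferritin genes separate all quiescent from all irradiated libraries.

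Irradiated cells had fewer footprints than quiescent cells on nearly all tested genes for replication-dependent histones and mitosis, on most for DNA replication and on lamin B1. They had more on the p21 gene CDKN1A, on the cyclin D2 gene CCND2, on most NRF2 and ferritin genes and on some genes of glycolysis, autophagy and oxidative phosphorylation. Matrix and secretory genes were lower in numbers that depended on quiescent replicate 1. Of the 11777 genes, 1705 were called (14.5%), 809 higher after irradiation (6.87%) and 896 lower (7.61%). With DESeq2 size factors in place of TMM the split was 904 higher and 812 lower. The counts of list members below are to be read beside the 6.87% and 7.61% of all genes tested. At least 2-fold changes were found for 203 of the higher and 434 of the lower genes. The 3 irradiated libraries lay wholly above the 3 quiescent ones for 2187 genes (18.6%) and wholly below for 1987 (16.9%), together 4174 (35.4%). Cycling cells, which were not part of the contrast, lay below both groups in mean level for 580 of the 809 higher genes and above both for 618 of the 896 lower genes. The count depended on single libraries. It was 2383 without quiescent replicate 1 (20.3% of 11734 genes), with 824 higher (7.02%) and 1559 lower (13.3%). It was 993 without quiescent replicate 2 (8.46%) and 1598 without quiescent replicate 3 (13.6%). Without irradiated replicate 1, 2 or 3 it was 948 (8%), 1077 (9.09%) and 1088 (9.21%). In the order of those 5 fits, higher and lower genes made up 4.03% and 4.43%, 6.68% and 6.95%, 3.97% and 4.03%, 4.41% and 4.68%, and 4.48% and 4.73%. In a fit on the 6 libraries alone it was 1404 of 11646 genes, 675 higher and 729 lower. That 6-library fit with the replicate number as a block, called the block below, gave 1496 (12.8%), 757 higher (6.5%) and 739 lower (6.35%). The block thus differs from the main fit in its libraries too. In every one of the 6 fits that left out a library, 798 of the 1705 genes were called.

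**Figure D2:**
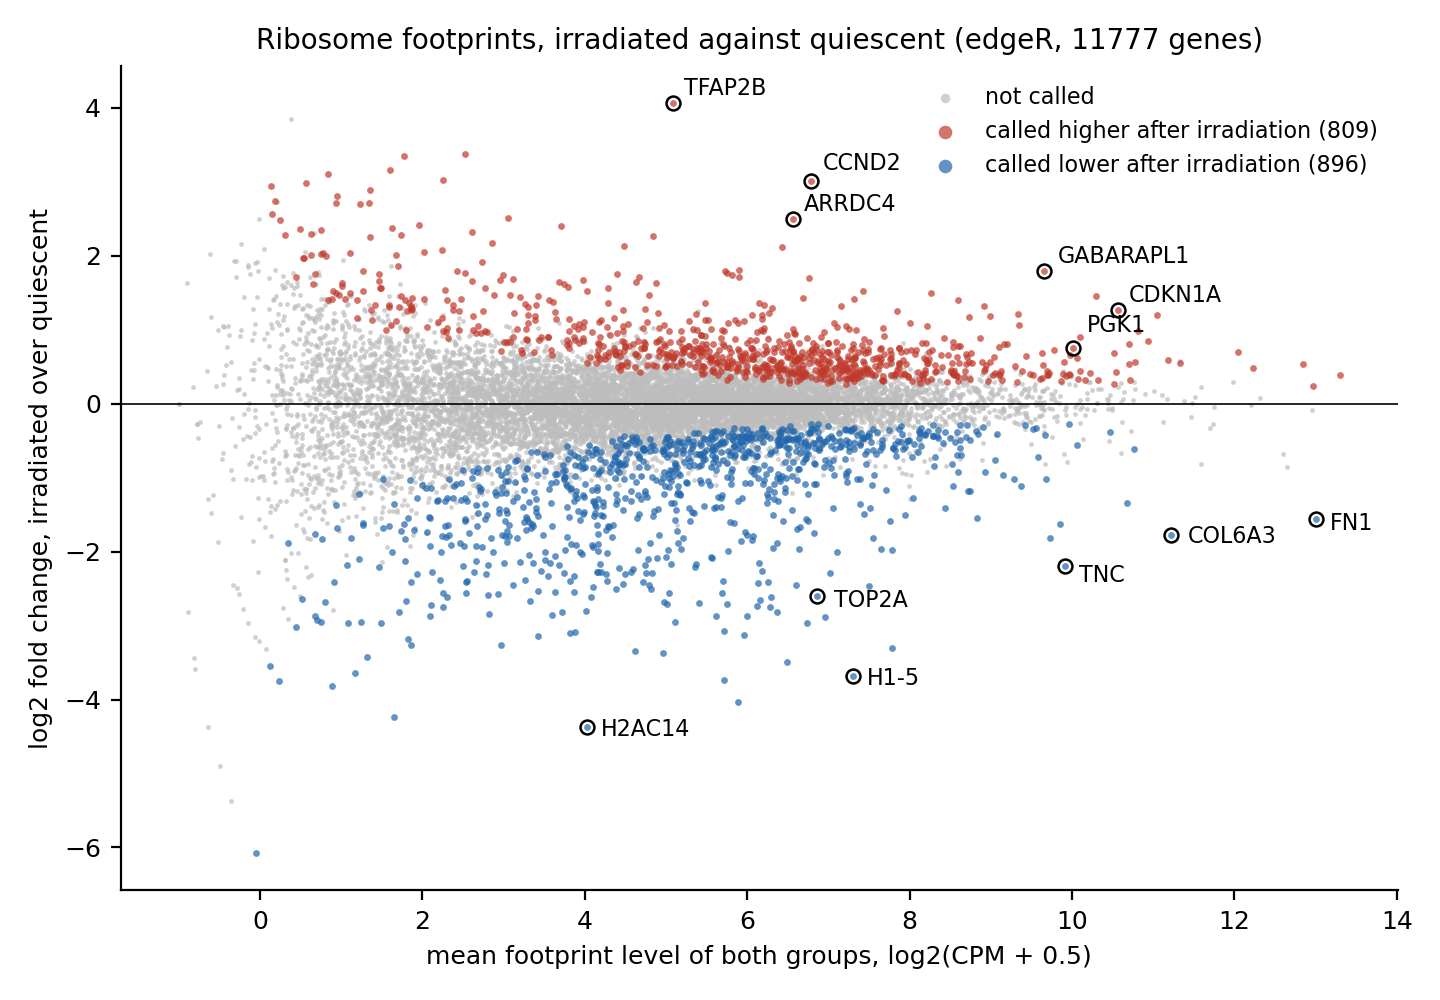
Log2 fold change of ribosome footprints, irradiated over quiescent, against the mean level of both groups on a log2 scale, for 11777 genes. Red and blue points are the 809 genes called higher and the 896 called lower, and ringed genes are described in the text, with histones and mitotic genes at the bottom and CCND2 and ARRDC4 at the top.

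The lists of histone and mitotic genes had the lowest medians of all lists examined. Replication-dependent histones, which package newly made DNA and are translated mainly during S phase, were called lower for 50 of 51 tested genes and higher for 0, with a median log2 fold change of -2.44 against -0.02 over all genes tested. H2AC14 (ENSG00000276368), a gene for histone H2A, had 25.5, 38 and 27 CPM in the quiescent libraries and 1.4, 1.89 and 1.14 CPM in the irradiated ones. All irradiated libraries lay far below all quiescent ones, and the log2 difference was -4.38 ± 0.24 (edgeR adjusted p = 7.56e-08). Its neighbour H2BC14 (ENSG00000273703), for histone H2B, had 94.8, 134 and 103 CPM in quiescent and 8.25, 4.53 and 6.56 CPM in irradiated cells, a change of -4.03 ± 0.22 (adjusted p = 6.52e-08). H1-5, for a linker histone, went from 244, 343 and 291 to 21.2, 23 and 24.2 CPM, a change of -3.68 ± 0.16 (edgeR adjusted p = 1.04e-08). H3C12, H3C8, H2BC3, H2BC6, H3C2 and H2BC7 were also among the 12 largest falls of called genes with at least 10 CPM in a group, with changes from -3.74 for H3C12 to -3.13 for H2BC7. Histone genes are near-identical in sequence, and reads that map to several places are in no gene's count, so their single levels are uncertain. Cycling cells had more footprints again, with H2AC14 at 113 CPM on average. In bulk libraries such as these, fewer cells in S phase or mitosis and fewer footprints per cell cannot be told apart.

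The mitosis and kinetochore list was called lower for 68 of 69 genes, with a median of -2.07. MKI67 (ENSG00000148773), which encodes the proliferation marker Ki-67, had 67, 133 and 80.3 CPM in quiescent and 12.8, 12.1 and 7.99 CPM in irradiated cells. Every irradiated library was below every quiescent one, with a log2 difference of -3.07 ± 0.27 (edgeR adjusted p = 5.34e-06). TOP2A (ENSG00000131747), the topoisomerase that untangles sister chromatids, went from 155, 270.3 and 171 CPM to 35.1, 33.6 and 29.4 CPM, a change of -2.60 ± 0.19 (edgeR adjusted p = 9.43e-07). CDK1, the kinase that drives entry into mitosis, went from 42.6, 70.1 and 41 to 12.8, 11.7 and 11.7 CPM (-2.07 ± 0.21; edgeR adjusted p = 1.71e-05). Its partner cyclin B1, CCNB1, went from 142, 193 and 122 to 47.4, 52.1 and 45.1 CPM (-1.67 ± 0.16; edgeR adjusted p = 1.6e-05). The 4 largest falls of the list among genes with at least 10 CPM in quiescent cells were MKI67, KIF15, a spindle motor (-3.14), ASPM, a spindle pole protein (-3.09), and CKAP2L, a spindle protein (-2.81), with ERCC6L, a helicase at mitotic centromeres, outside the list at -3.26. Quiescent replicate 2 was the highest of its group for all of these genes, and cycling cells were higher again, with MKI67 at 206, 185 and 224 CPM and TOP2A at 384, 412 and 352 CPM. The list was as low without quiescent replicate 1 (68 of 69 lower, median -2.17). Its summed level was 6918.4 to 7471.5 CPM in cycling, 2934.8 to 4534.7 CPM in quiescent and 1163.4 to 1179.8 CPM in irradiated libraries. How far the quiescent cultures had stopped dividing was not tested.

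Promoters are shown for the fallen lists, whose promoters held some short sequences more often than promoters overall. The letters searched, on both strands and in the 300 bases around each start site (250 before, 50 after), were TTTGAA, known as the cell cycle genes homology region and bound by the MuvB complex, CCAAT, bound by NF-Y, and 4 forms of the E2F site (TTTCCCGC, TTTGGCGC, TTTCGCGC and TTTGCCGC). TTTGAA was found in 40 of 59 promoters of the mitosis list (67.8%), in 0 of 39 of the DNA replication list and in 1854 of 15307 protein-coding promoters (12.1%). An E2F form was found in 5 of 59 mitosis promoters (8.47%), in 21 of 39 replication promoters (53.8%) and in 687 of 15307 overall (4.49%). CCAAT was found in 72.9% of mitosis, 59.0% of replication, 87.8% of histone and 36.6% of all promoters. Histone promoters also held TTTGAA in 18 of 49 (36.7%) and an E2F form in 14 of 49 (28.6%). Among the genes called lower, 142 of 721 promoters held TTTGAA (19.7%), against 44 of 659 for genes called higher (6.68%) and 9.86% of all genes tested. These shares were not tested, and a match is a run of letters, not a shown binding site.

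The 150 bases up to the start site follow, 5′ to 3′ on the strand of the gene, from RefSeq (GRCh38.p14). They are members called lower, taken in order of their fall, whose stretch holds the searched letters. Not every chromosome was included in this choice. For mitosis the capitals mark TTTGAA or its reverse TTCAAA, and CCAAT or its reverse ATTGG. CENPA, the centromeric histone H3 variant, changed by -3.18 in footprints, and its stretch is at chr2:26785906-26786055. Those of the others are at chr1:197146670-197146819 for ASPM, chr10:128126424-128126573 for MKI67, where TTTGAA and ATTGG share 1 base, and chr2:112764610-112764759 for CKAP2L.
CENPA: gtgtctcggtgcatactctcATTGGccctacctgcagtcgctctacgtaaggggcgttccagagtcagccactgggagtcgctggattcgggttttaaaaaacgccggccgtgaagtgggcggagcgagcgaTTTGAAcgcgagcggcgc
ASPM: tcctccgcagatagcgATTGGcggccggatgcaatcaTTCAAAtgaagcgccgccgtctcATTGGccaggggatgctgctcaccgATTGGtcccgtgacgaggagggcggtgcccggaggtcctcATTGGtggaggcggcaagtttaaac
MKI67: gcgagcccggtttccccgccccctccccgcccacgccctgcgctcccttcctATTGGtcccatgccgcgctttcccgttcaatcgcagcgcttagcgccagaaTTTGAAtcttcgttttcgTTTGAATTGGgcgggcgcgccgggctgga
CKAP2L: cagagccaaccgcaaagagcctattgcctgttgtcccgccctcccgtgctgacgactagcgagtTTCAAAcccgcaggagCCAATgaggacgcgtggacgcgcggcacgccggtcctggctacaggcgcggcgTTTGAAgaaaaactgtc
For DNA replication the capitals mark an E2F form. DTL is at chr1:212035598-212035747. MCM7, a helicase subunit (-1.55), is at chr7:100101398-100101547, and CDT1, a licensing factor (-1.55), at chr16:88803639-88803788.
DTL: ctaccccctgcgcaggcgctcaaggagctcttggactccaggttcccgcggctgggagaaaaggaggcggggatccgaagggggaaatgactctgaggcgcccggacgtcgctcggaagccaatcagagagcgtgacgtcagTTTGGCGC
MCM7: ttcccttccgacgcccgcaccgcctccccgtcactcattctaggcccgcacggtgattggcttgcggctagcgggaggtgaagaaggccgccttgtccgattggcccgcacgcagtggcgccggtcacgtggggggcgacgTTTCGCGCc
CDT1: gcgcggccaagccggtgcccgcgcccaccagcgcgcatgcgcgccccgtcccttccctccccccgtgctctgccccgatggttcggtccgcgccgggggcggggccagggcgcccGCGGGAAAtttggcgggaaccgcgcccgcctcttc
For histones the capitals mark CCAAT or ATTGG alone, and the E2F form TTTCGCGC in the H2AC14 stretch is left in lower case, as are CCAAT or ATTGG in those of DTL and MCM7. H2AC14 (chr6:27814778-27814927, minus strand) and H2BC14 (chr6:27814872-27815021, plus strand) lie head to head, and their stretches overlap.
H2AC14: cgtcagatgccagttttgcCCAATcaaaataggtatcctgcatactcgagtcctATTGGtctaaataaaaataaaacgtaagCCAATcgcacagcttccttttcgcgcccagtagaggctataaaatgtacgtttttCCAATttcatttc
H2BC14: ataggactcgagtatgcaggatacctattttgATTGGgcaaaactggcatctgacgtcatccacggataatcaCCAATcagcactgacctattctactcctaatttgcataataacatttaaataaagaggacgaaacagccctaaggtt

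DNA replication genes were called lower for 31 of 45 and higher for 0, with a median of -0.89. Fits without quiescent replicate 2 or irradiated replicate 1 called 21 of them. MCM10, which helps to start the replicative helicase, had 16.9, 26.9 and 17.8 CPM in quiescent and 4.04, 3.4 and 2.85 CPM in irradiated cells (-2.54 ± 0.30; edgeR adjusted p = 7.85e-05). CDC45, a partner of the helicase, DTL, which limits licensing, and CDC6, which licenses origins, changed by -2.0, -1.94 and -1.91. MCM2, a subunit of the helicase, had 65.5, 89 and 70.9 CPM against 36, 37.4 and 33.1 CPM (-1.08 ± 0.18; edgeR adjusted p = 0.000979). PCNA, the sliding clamp of DNA polymerases, was not called, with 230.3, 246 and 187 CPM in quiescent and 218, 238 and 201 CPM in irradiated cells, which overlap (-0.01 ± 0.13; edgeR adjusted p = 0.959). PCNA is also a p53 target.

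Of the 25 genes for making nucleotides, 9 were called lower and 1 higher (median -0.36). RRM2, the ribonucleotide reductase subunit of dividing cells, had 75.6, 126 and 87.1 CPM in quiescent and 29.5, 27.9 and 28.8 CPM in irradiated cells (-1.74 ± 0.21; edgeR adjusted p = 9.89e-05). TK1, a thymidine kinase of S phase, went from 38.7, 50.3 and 48.6 to 11.9, 13.6 and 15.1 CPM (-1.77). The one gene called higher was RRM2B, the p53-induced subunit that serves DNA repair outside S phase, at 59.6, 56.9 and 53.6 CPM against 92.8, 95.5 and 93.3 CPM (0.73 ± 0.10; edgeR adjusted p = 0.000243). The related subunits RRM2 and RRM2B moved in opposite directions, each with no overlap between groups.

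DNA repair and damage signalling genes were called lower for 20 of 51 and higher for 0 (median -0.46). The largest falls among genes with at least 10 CPM in a group were EXO1, a nuclease of end resection (-2.85), BRCA2 and BRIP1, of homologous recombination (-2.57 and -1.97), and FANCD2, of cross-link repair (-2.53). EXO1 had 8.24, 14.9 and 11 CPM in quiescent and 1.05, 3.02 and 1.14 CPM in irradiated cells. The groups did not overlap for any of these genes, and BRCA2 changed by -3.20 without irradiated replicate 1.

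Nuclear structure genes changed for a few members. LMNB1 (ENSG00000113368), which encodes lamin B1 of the nuclear lamina, had 79.8, 112 and 84.7 CPM in quiescent and 14, 15.9 and 12.6 CPM in irradiated cells, a log2 difference of -2.71 ± 0.16 (edgeR adjusted p = 1.29e-07). Cycling cells had 201, 179.5 and 192 CPM. TMPO, for the lamina-associated LAP2 proteins, fell by 1.35 on the log2 scale, from 99.7, 129.9 and 96 to 40.7, 41.5 and 45.6 CPM, and LBR, the lamin B receptor, by 1.52, from 15.2, 36.5 and 29.7 to 10.4, 9.06 and 8.56 CPM (edgeR adjusted p = 0.00458). LMNA, for the A-type lamins, was at 1467, 1496 and 1651 CPM and 1446, 1602 and 1656 CPM and was not called (0.03 ± 0.10; edgeR adjusted p = 0.898). In all, 4 of 17 genes of the lamina and inner nuclear membrane were called lower (10 without quiescent replicate 1) and 0 higher. Among high mobility group and variant histone genes 8 of 24 were lower (5 without irradiated replicate 1). HMGB2, a chromatin protein lost in senescence, went from 152, 186 and 107 to 51.8, 47.2 and 37.9 CPM (-1.70 ± 0.17; edgeR adjusted p = 1.9e-05). EZH2, the H3K27 methyltransferase, went from 26.5, 33.1 and 23.4 to 6.49, 7.17 and 7.42 CPM (-1.99).

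**Figure D3:**
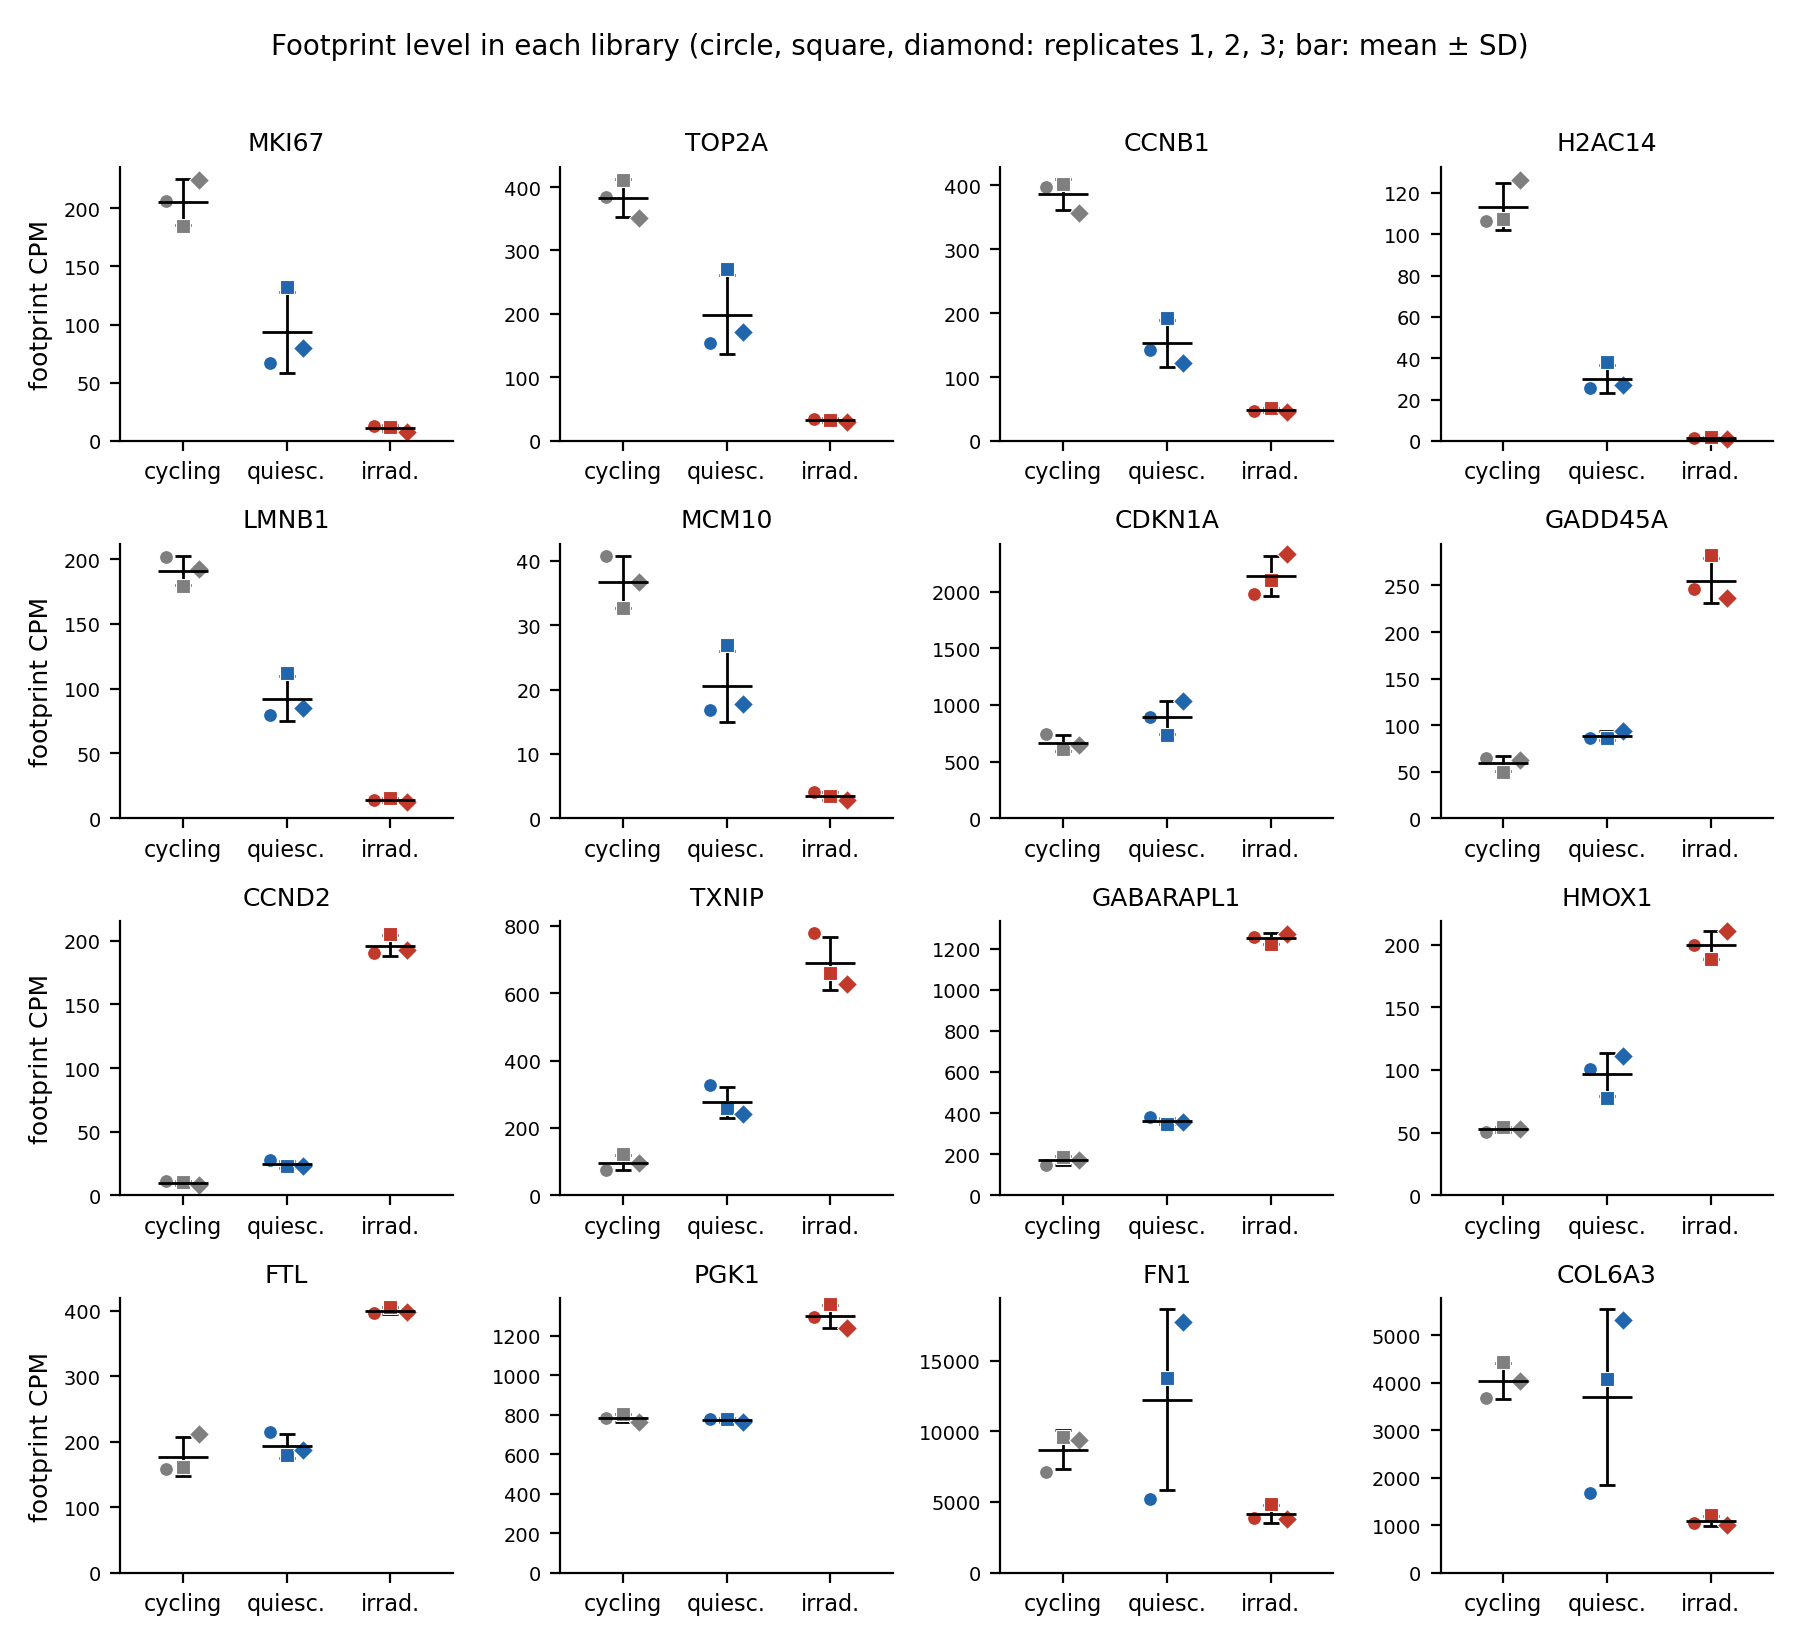
Footprint level (CPM) of 16 genes in the 3 cycling, 3 quiescent and 3 irradiated libraries, each panel with its own axis from 0, with mean and SD. MKI67, TOP2A, CCNB1, H2AC14, LMNB1 and MCM10 descend from cycling over quiescent to irradiated cells, while quiescent replicate 1 lies near the irradiated libraries for FN1 and COL6A3.

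CDK inhibitors did not move together: of 8, 1 was called higher and 3 lower. CDKN1A (ENSG00000124762), which encodes p21, had 895, 739 and 1035 CPM in quiescent and 1979, 2101 and 2333 CPM in irradiated cells. All irradiated libraries were above all quiescent ones, with a log2 difference of 1.26 ± 0.12 (edgeR adjusted p = 1.27e-05). CDKN2A (ENSG00000147889), which encodes p16 and p14ARF, had 50.2, 43.9 and 75 CPM in quiescent and 50.7, 61.5 and 53.9 CPM in irradiated cells, groups that overlap, and was not called (-0.03 ± 0.28; edgeR adjusted p = 0.959). CDKN1B, which encodes p27, an inhibitor known from contact-inhibited cells, had 71.4, 65.3 and 73.5 CPM against 52.8, 51.4 and 49.6 CPM and fell by 0.45 on the log2 scale (edgeR adjusted p = 0.00835, and 0.0893 with all libraries thinned to one depth). CDKN2C, which encodes p18, fell by 1.82. CDKN3, a phosphatase that acts on CDK1 and CDK2, fell by 2.11, a call lost with the replicate number as a block (adjusted p = 0.0673). Cycling cells had lower means than both groups for CDKN1A (665 CPM) and CDKN2A (27.8 CPM).

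Of 33 tested p53 target genes, 7 were called higher and 0 lower, with a median of 0.34. Without irradiated replicate 1 or 2 the count was 3 and without quiescent replicate 2 it was 4. GADD45A (ENSG00000116717), a stress protein of growth arrest and repair, had the largest rise, from 86.1, 85.8 and 94.1 CPM to 246, 283 and 237 CPM (1.52 ± 0.12; edgeR adjusted p = 1.76e-06). MDM2, the ligase that degrades p53, went from 281, 282 and 234 to 469.8, 503 and 444 CPM (0.83 ± 0.10; edgeR adjusted p = 9.42e-05). BCL2L1, which encodes the survival protein BCL-xL, was the only one of 16 BCL2 family genes called, with 91.8, 81.6 and 75.4 CPM in quiescent and 175, 171 and 141 CPM in irradiated cells (0.97 ± 0.13; edgeR adjusted p = 0.000199). The fit without quiescent replicate 1 called 3 of that family.

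The largest rises were spread over genes of several kinds. CCND2 (ENSG00000118971), which encodes cyclin D2, a partner of CDK4 and CDK6, had 27.4, 22.9 and 22.8 CPM in quiescent and 191, 205 and 193 CPM in irradiated cells. The groups were far apart, with a log2 difference of 3.01 ± 0.13 (edgeR adjusted p = 1.04e-08), and cycling cells had 11.2, 10.6 and 8.0 CPM. ARRDC4 (ENSG00000140450), an arrestin-like protein induced by glucose, had 29.2, 29.5 and 26.4 CPM against 167, 159 and 152 CPM (2.49 ± 0.12; edgeR adjusted p = 2.55e-08). Its relative TXNIP, which restrains glucose uptake and binds thioredoxin, had 329, 260.5 and 240.2 CPM against 778, 659 and 627 CPM (1.32 ± 0.29; edgeR adjusted p = 0.00737). Both relatives were higher in every irradiated library than in any quiescent one.

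TFAP2B, a transcription factor, had the largest fitted rise of the called genes with at least 10 CPM in a group (4.06 ± 0.83), with 1.18, 1.04 and 8.76 CPM in quiescent and 35.8, 126 and 27.7 CPM in irradiated libraries. Its edgeR adjusted p was 0.00594, and 0.0801 with the replicate number as a block, so the call was lost there. The fitted change was 5.76 without quiescent replicate 3 and 3.13 without irradiated replicate 2. MAOA, which breaks down amines, went from 5.25, 3.4 and 3.23 to 19, 20.0 and 24.5 CPM (2.41). SULF2, an enzyme that trims heparan sulfate outside the cell, went from 1.47, 2.14 and 3.69 to 9.83, 11 and 12.3 CPM (2.17). RDH10, a retinol dehydrogenase, had 14.2, 39.4 and 42.1 CPM against 122, 167 and 129 CPM (2.12). ADH1B, an alcohol dehydrogenase, and FMO2, a flavin monooxygenase, had means of 1.57 and 2.83 CPM in cycling cells. ADH1B rose from 32.2, 24.8 and 22.3 in quiescent to 107, 63.4 and 106 CPM in irradiated cells (1.81), and FMO2 from 27.4, 21.4 and 22.1 to 102, 75.5 and 66.8 CPM (1.79). SYNPO2, an actin-binding protein of muscle, changed by 2.27. NSG1, of neuronal endosomes, and KRTAP1-5, a keratin-associated protein, changed by 2.50 and 2.13. Among the largest falls, a gene outside cell division was FRZB, a secreted WNT inhibitor, at 15.2, 20.8 and 37.5 CPM in quiescent and 3.16, 3.02 and 2.28 CPM in irradiated cells (-3.10 ± 0.42; edgeR adjusted p = 0.000227).

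Genes driven by NRF2, the transcription factor of the antioxidant response, together with the ferritin genes, rose for most members: 21 of 36 were called higher and 1 lower, with a median of 0.52. The summed level of the list was 13231, 12734 and 12735 CPM in the quiescent libraries and 18926, 18914 and 18876 CPM in the irradiated ones. HMOX1, which degrades heme, had 101, 77.5 and 111 CPM against 199.7, 188 and 211 CPM (1.05 ± 0.16; edgeR adjusted p = 0.000691). FTL, the light chain of ferritin, which stores iron, had 214, 179 and 187 CPM against 396, 406 and 397 CPM (1.05 ± 0.11; edgeR adjusted p = 3.51e-05). The irradiated libraries were close together for both genes and above all quiescent ones. NQO1, a textbook NRF2 target, was not called, with 723, 707 and 692 CPM in quiescent and 758, 721 and 772 CPM in irradiated cells (0.09 ± 0.11; edgeR adjusted p = 0.669). The one member called lower was MT1E, a metallothionein that binds zinc and copper, at 237, 196 and 213 CPM against 32.1, 28.7 and 71 CPM (-2.29 ± 0.30; edgeR adjusted p = 0.000168). Fits without 1 library called 15 to 22 members higher.

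Autophagy genes were called higher for 8 of 28 and lower for 0 (median 0.32). GABARAPL1 (ENSG00000139112), an ATG8 protein that coats autophagosomes, had 380.0, 349 and 357 CPM in quiescent and 1258, 1220.0 and 1271 CPM in irradiated cells (1.79 ± 0.11; edgeR adjusted p = 1.21e-07). The libraries within each group were close together, and cycling cells were lowest at 148, 187 and 174 CPM. SQSTM1, the cargo receptor p62, went from 2174, 1919.8 and 2149 to 3014, 3152 and 2982 CPM (0.55 ± 0.08; edgeR adjusted p = 0.000512). BNIP3L and BNIP3, receptors for the removal of mitochondria, changed by 0.68 and 0.65 (edgeR adjusted p = 0.0066 and 0.0102).

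With all libraries in the fit, lysosomal genes were called no more often than all genes tested. Of 59, 4 were higher (6.78%) and 1 lower (1.69%), against 6.87% and 7.61% of all genes tested. Without quiescent replicate 1 the numbers were 3 and 22 of 59, against 7.02% and 13.3% of all genes in that fit. Lower members were then above the share of all genes, and the median went from -0.10 to -0.40. With the block the numbers were 3 and 0, and without any one of the other libraries 0 were lower. The higher genes included subunits of the V-type ATPase, the proton pump that acidifies lysosomes. ATP6V1A had 408, 429 and 383 CPM in quiescent and 685, 728 and 654 CPM in irradiated cells (0.76 ± 0.08; edgeR adjusted p = 4.02e-05). ATP6V1H changed by 0.51 and ATP6V0D1 by 0.38. The latter lost its call in the 6 libraries alone (edgeR adjusted p = 0.0621) and with the replicate block (0.0689). The summed level of the list was 3865, 6954 and 7762 CPM in quiescent and 6142, 6620.2 and 5992 CPM in irradiated cells.

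Glycolysis and glucose uptake genes were called higher for 10 of 25 and lower for 0 (median 0.37), and without quiescent replicate 1 for 9 and 2. PGK1, a glycolytic kinase, had 780.4, 776 and 761 CPM in quiescent and 1296, 1359 and 1239.6 CPM in irradiated cells, with a small spread in each (0.75 ± 0.07; edgeR adjusted p = 1.16e-05). ENO2, an enolase, changed by 0.65 (edgeR adjusted p = 0.00186). Nuclear genes of oxidative phosphorylation were called higher for 17 of 73 and lower for 0 (median 0.20), with 1 lower without quiescent replicate 3. Their count was 9, 10 and 11 without irradiated replicate 1, quiescent replicate 2 and irradiated replicate 2. COX7A1, the muscle form of a cytochrome oxidase subunit, rose most, from 12.3, 11.4 and 11.7 to 34.4, 31.3 and 44.5 CPM (1.64 ± 0.21; edgeR adjusted p = 0.000146), and NDUFA3, of complex I, changed by 0.75. Of 13 mitochondrially encoded genes 0 were called by edgeR, and 1 was called lower without quiescent replicate 1.

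Chaperones of the cytosol were called higher for 7 of 29, among them small heat shock proteins, and lower for 1. CRYAB, alpha-B crystallin, had 26.7, 26.5 and 23.6 CPM in quiescent and 80.7, 79.7 and 96.4 CPM in irradiated cells (1.74 ± 0.19; edgeR adjusted p = 3.34e-05). HSPB6 and HSPB8, of the same family, changed by 1.19 and 0.98, and the co-chaperone DNAJB4 by 1.25 (edgeR adjusted p = 0.00136, 0.000409 and 6.41e-05). CCT2, a subunit of the chaperonin that folds actin and tubulin, was the lower gene (-0.44; edgeR adjusted p = 0.00933), a call lost without quiescent replicate 2 (adjusted p = 0.0549) or irradiated replicate 1 (0.052). With the block 4 genes of the list were called higher.

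**Figure D4:**
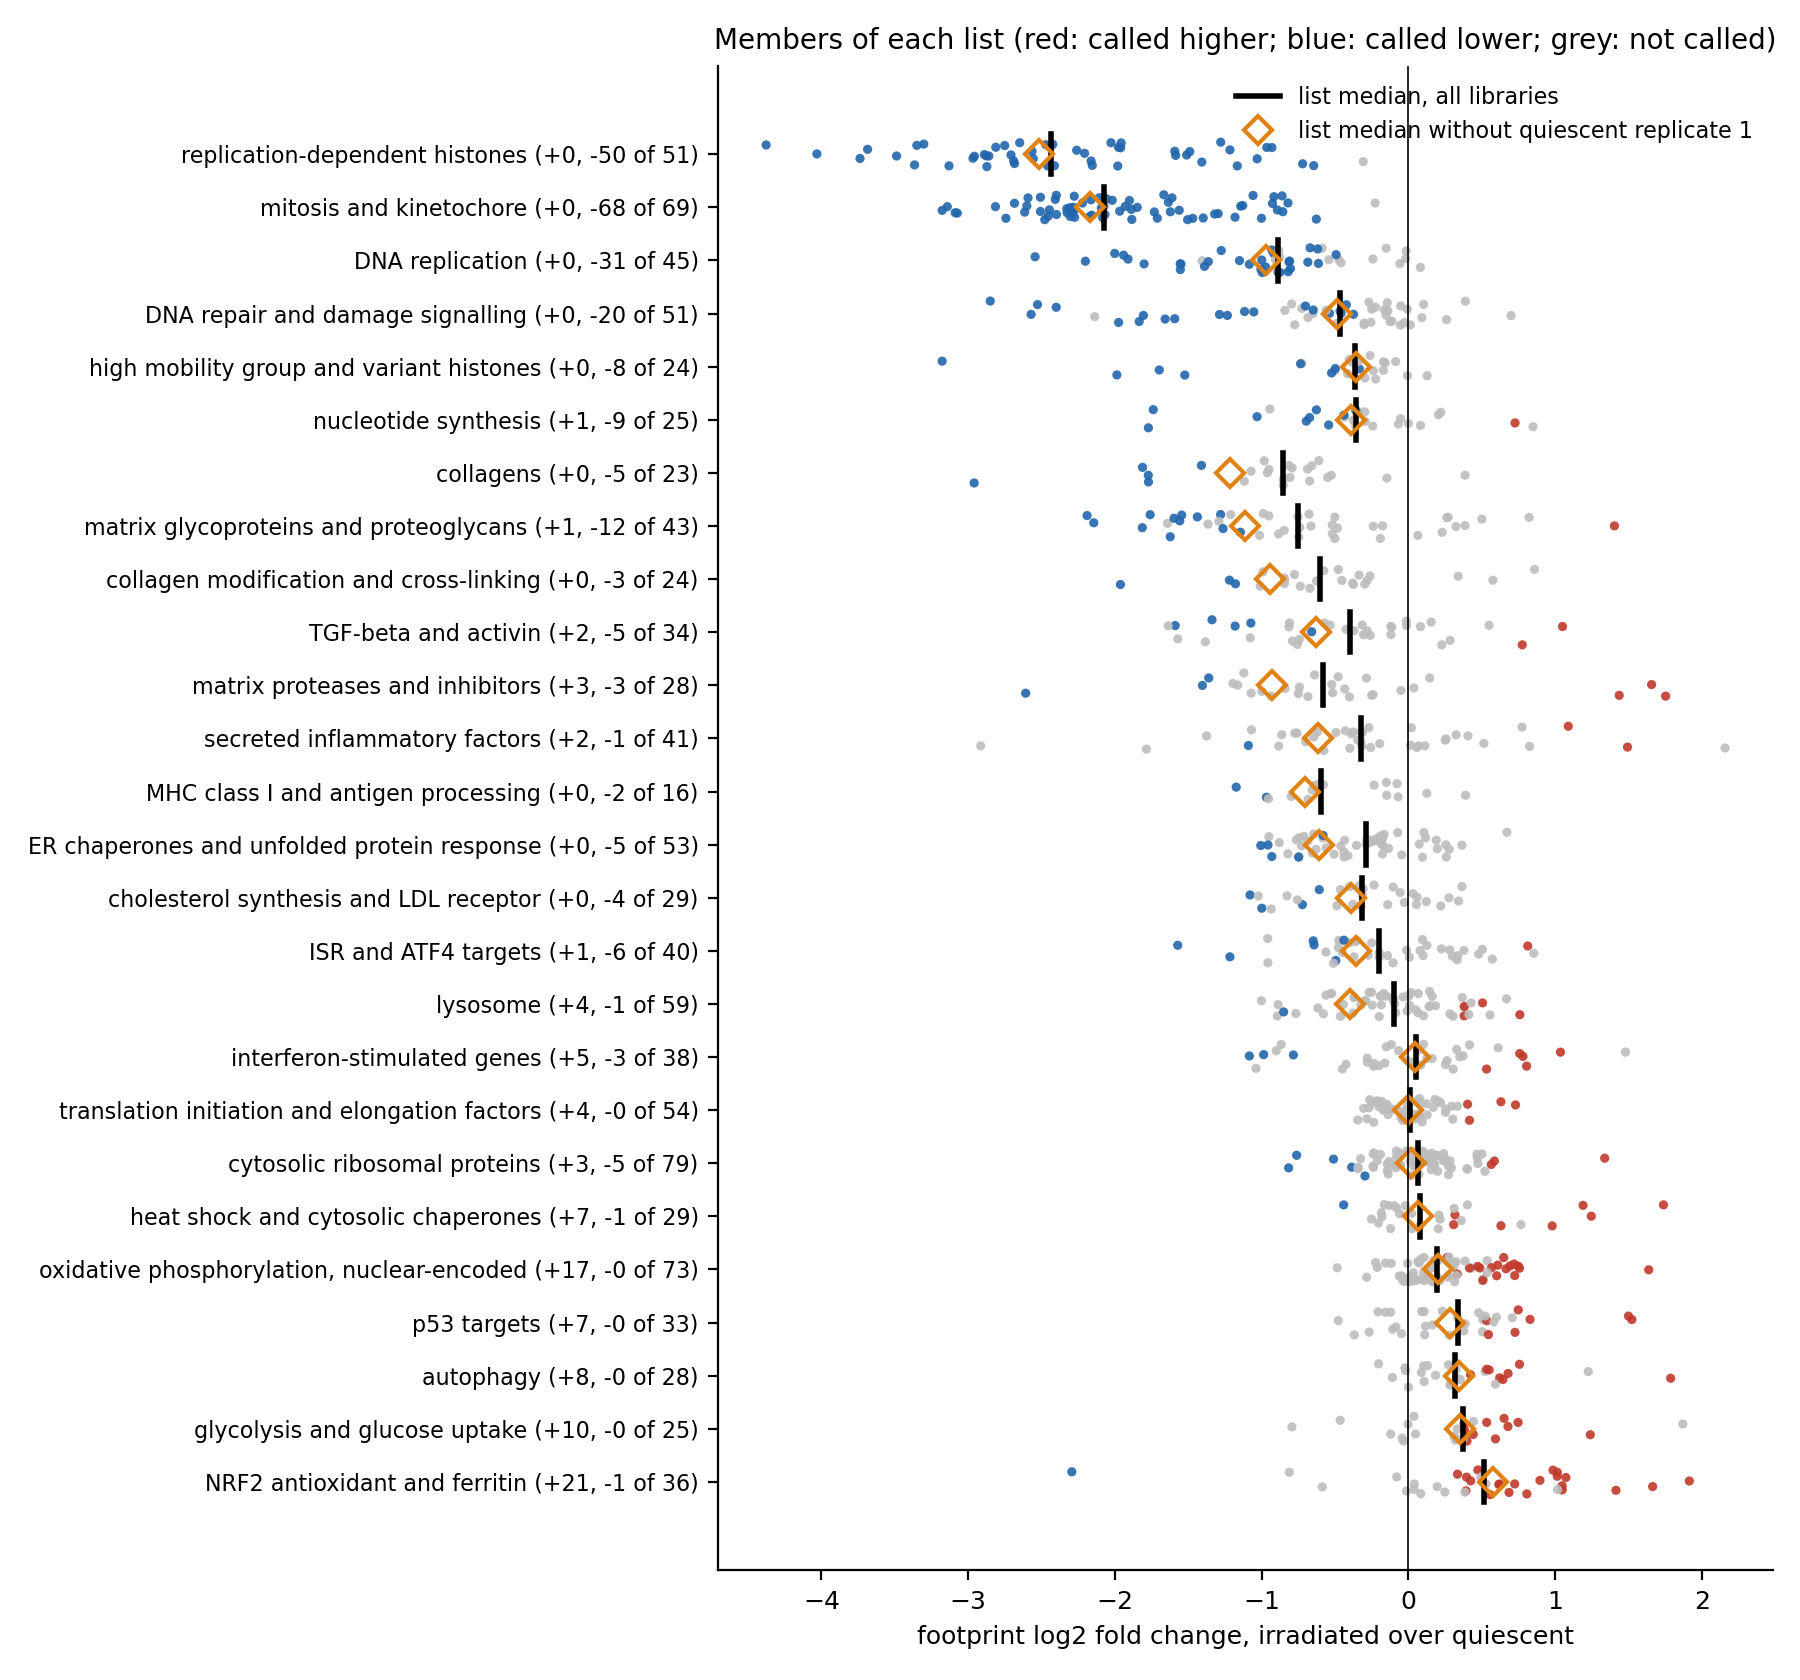
Log2 fold change of footprints, irradiated over quiescent, for each tested member of 26 lists, with the number called higher and lower in the label. Bars are list medians and diamonds the medians without quiescent replicate 1, which shift to lower values for the matrix, secretory and lysosome lists and hardly for the lists of mitosis, replication, NRF2 or glycolysis.

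The matrix lists, low in quiescent replicate 1, gave counts that hung on that library; its part in them was not tested. Collagens were called lower for 5 of 23 and higher for 0, with a median of -0.85. Without quiescent replicate 1 they were lower for 19, with a median of -1.21, and with the block for 3. Without quiescent replicate 3 or any one irradiated replicate they were lower for 3. COL6A3, a chain of collagen VI, had 1685, 4074 and 5329 CPM in quiescent and 1046, 1207 and 994 CPM in irradiated cells. Replicate 1 was far below the other quiescent libraries and still above the irradiated ones (-1.77 ± 0.30; edgeR adjusted p = 0.00122, and 9.53e-08 with a change of -2.12 without replicate 1). COL12A1, a collagen at fibril surfaces, changed by -1.81, from 628, 1511 and 1828 to 362, 447 and 323 CPM. COL6A3 and COL12A1 lost their calls with libraries thinned to one depth and the block (edgeR adjusted p = 0.0657 and 0.0622). COL1A1, the main chain of collagen I, had 3755, 8948 and 12024 CPM against 4206, 4879.8 and 4611 CPM, groups that overlap only through replicate 1, and was not called (-0.85 ± 0.27; edgeR adjusted p = 0.0523). Without replicate 1 its change was -1.20 (edgeR adjusted p = 2.32e-06).

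Matrix glycoproteins and proteoglycans were called lower for 12 of 43 and higher for 1 (median -0.75). Without quiescent replicate 1 the numbers were 30 and 1 of 42 (median -1.11), and with the block 2 and 0. Without irradiated replicate 1 the list had 7 lower. FN1 (ENSG00000115414), which encodes fibronectin, had 5206, 13791 and 17750.0 CPM in quiescent and 3837, 4888 and 3761 CPM in irradiated cells. All irradiated libraries lay below all quiescent ones (-1.56 ± 0.30; edgeR adjusted p = 0.00366). In the 6 libraries alone the edgeR adjusted p was 0.0418. The call was lost with the block (0.0717) and with those libraries thinned to one depth (0.0592). TNC, tenascin C, had 535, 1682 and 2521 CPM against 322, 376 and 342 CPM (-2.19 ± 0.38; edgeR adjusted p = 0.00165, and 0.0573 with the block). POSTN, periostin, and VCAN, versican, changed by -1.62 and -1.81, and both lost their calls with the block (adjusted p = 0.0589 and 0.0697). Of 24 genes that modify or cross-link collagen 3 were called lower, 17 without quiescent replicate 1 and 1 without any one of the other libraries, as with the block. PCOLCE, which helps to cleave procollagen, was one of them with 164, 327 and 464 CPM against 80.0, 82.3 and 82.7 CPM (-1.96 ± 0.26; edgeR adjusted p = 0.000209).

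With all libraries in the fit, inflammatory factors of the senescence-associated secretory phenotype, a list known from senescent cells, were called less often than all genes tested. Of 41 such factors 2 were higher (4.88%) and 1 lower (2.44%), against 6.87% and 7.61% of all genes tested. The 2 higher genes encode growth factors. FGF7, a growth factor for epithelium, had 147, 184 and 150.4 CPM in quiescent and 478, 484 and 395 CPM in irradiated cells (1.49 ± 0.18; edgeR adjusted p = 0.000102). FGF2, a growth factor of many cell types, had 83.8, 94.4 and 78.1 CPM against 194, 192 and 159 CPM (1.09 ± 0.11; edgeR adjusted p = 1.57e-05). The lower gene was the cytokine IL32, at 199, 152 and 118 CPM against 78.1, 86.1 and 56.5 CPM (-1.09 ± 0.20; edgeR adjusted p = 0.00237). IL6 was at 3.83, 13.3 and 15.3 and 11.6, 9.82 and 17.1 CPM, which overlap, and was not called (0.26 ± 0.51; edgeR adjusted p = 0.791). CXCL8, a neutrophil chemokine, was at 2.84, 9.7 and 12.9 and 2.81, 4.15 and 3.14 CPM and was not called either (-1.37 ± 0.96; edgeR adjusted p = 0.388). Without quiescent replicate 1, 11 of the 41 were called lower and 2 higher, against 13.3% and 7.02% of all genes in that fit. Lower members were then above the share of all genes. With the block 2 were lower and 3 higher.

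Among 28 matrix proteases and their inhibitors, 3 were called higher and 3 lower, and 3 and 17 without quiescent replicate 1. Without quiescent replicate 2 or 3 or irradiated replicate 1 or 2 the list had 1 lower, and without irradiated replicate 3 it had 1 higher. MMP1, interstitial collagenase, had 69, 182 and 149 CPM in quiescent and 23.9, 23 and 18.5 CPM in irradiated cells, with no overlap (-2.61 ± 0.30; edgeR adjusted p = 6.56e-05). Cycling cells had 217, 228 and 249.8 CPM. LTBP2, a fibrillin-binding relative of the TGF-beta binding proteins, fell by 1.59, from 135, 329 and 507 to 111, 111 and 101 CPM (edgeR adjusted p = 0.00546, and 0.0955 with the block). In the TGF-beta and activin list 5 of 34 were lower and 2 higher, against 18 and 2 without quiescent replicate 1. Without any one of the others the lower members were 2 to 4, and the higher ones 0 without quiescent replicate 2 or any one irradiated replicate. The block gave 3 lower and 2 higher.

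Chaperones and sensors of the endoplasmic reticulum were also low in quiescent replicate 1. All libraries gave 5 of 53 lower and 0 higher (median -0.29), and leaving out quiescent replicate 1 gave 32 lower (median -0.61). The other fits without 1 library gave 2 lower each, and the block 1 lower and 1 higher. HSPA5, the main chaperone BiP, had 291, 739 and 890.4 CPM in quiescent and 319, 369 and 319.8 CPM in irradiated cells, overlapping through replicate 1 (-0.93 ± 0.27; edgeR adjusted p = 0.0362). Without quiescent replicate 1 its change was -1.28 (adjusted p = 4.09e-07). The call was lost in the 6 libraries alone (edgeR adjusted p = 0.137) and with the block (0.177). It was also lost without any one of the other 5 libraries (adjusted p = 0.0752 to 0.134). CREB3L2, a transcription factor of collagen secretion, had 62.2, 104 and 131 CPM against 51.9, 46.8 and 53.9 CPM (-0.96), with an edgeR adjusted p of 0.00608 and 0.0531 with the block. Cholesterol synthesis genes were called lower for 4 of 29, and 12 without quiescent replicate 1. Without any one of the others 1 to 3 were lower, and with the block 2. ACAT2, an early enzyme of that pathway, had 198, 227 and 150.1 CPM against 129.5, 127 and 120.4 CPM (-0.61 ± 0.13; edgeR adjusted p = 0.00667).

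The integrated stress response slows initiation and raises translation of ATF4 mRNA. Of 40 ATF4 targets and regulators, 1 was called higher (2.5%) and 6 lower (15%), against 6.87% and 7.61% of all genes tested. Both directions together were near the share of all genes tested (14.5%). Without quiescent replicate 1 there were 13 lower of 40, against 13.3% of all genes in that fit. Without any one irradiated replicate there were 3 lower, and without quiescent replicate 3 there were 4 higher. The block gave 3 higher and 5 lower. ATF4 itself had 196, 195 and 248 CPM in quiescent and 264, 256 and 256 CPM in irradiated cells. The irradiated libraries lay above the quiescent ones, but the gene was not called (0.28 ± 0.12; edgeR adjusted p = 0.144). Without quiescent replicate 3 it was (0.41; adjusted p = 0.0357). ATF3, a stress-induced repressor, was the higher one, with 13.6, 11.2 and 13 CPM against 20.2, 22.7 and 24 CPM (0.81 ± 0.18; edgeR adjusted p = 0.00803). ALDH18A1, which makes proline precursors, fell by 0.64, from 173, 182 and 201 to 120.4, 125 and 111 CPM (edgeR adjusted p = 0.000754).

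Genes of the translation machinery had medians near 0. Cytosolic ribosomal proteins were called higher for 3 and lower for 5 of 79 (median 0.06), and their summed level was 21313, 22768 and 24139 CPM in quiescent and 22334, 23056 and 24333 CPM in irradiated cells. Fits without 1 library gave 2 to 7 higher (7 without quiescent replicate 3) and 1 to 5 lower (1 without quiescent replicate 2 or 3 or irradiated replicate 1 or 2), and the block gave 7 and 2. Many have near-identical copies, so single genes are uncertain. RPL22L1, a paralog of RPL22, fell by 0.82, from 224, 260.2 and 191 to 125, 139 and 121 CPM (edgeR adjusted p = 0.00194). RPL30 rose from 364, 401 and 460.1 to 626, 648 and 539.8 CPM (0.57 ± 0.11; edgeR adjusted p = 0.00279), a call lost with unstranded counts (0.12; adjusted p = 0.597). Of 54 initiation and elongation factors 4 were called higher (2 without irradiated replicate 2) and 0 lower. EIF4A2, a helicase of initiation, had 201, 199.8 and 207 CPM against 338, 359.9 and 311 CPM (0.73 ± 0.10; edgeR adjusted p = 0.000248), while its mRNA was not called (0.26; RNA-seq adjusted p = 0.181). The difference between those changes was itself not called (0.47; edgeR adjusted p = 1). Mitochondrial ribosomal proteins had a median of 0.02, with 3 higher and 3 lower of 74 (1 lower without quiescent replicate 2, irradiated replicate 1 or irradiated replicate 3, and 5 and 0 with the block).

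Interferon-stimulated genes went both ways, with 5 of 38 called higher and 3 lower (median 0.05). Without quiescent replicate 2 or irradiated replicate 2 there were 3 higher. TRIM22, an antiviral ligase, and IFITM3, which blocks viral entry, changed by 0.78 and 1.04. The guanylate-binding proteins GBP1 and GBP2, induced mainly by interferon gamma, fell. GBP1 had 101, 100.4 and 95.8 CPM against 48.4, 46.4 and 45.1 CPM (-1.08 ± 0.23; edgeR adjusted p = 0.00571), and GBP2 changed by -0.78. Among 16 genes of MHC class I and antigen processing 2 were lower (9 without quiescent replicate 1, and 1 without quiescent replicate 2, irradiated replicate 1, irradiated replicate 3 or with the block), one of them NLRC5, the activator of class I genes, at 13.5, 13.4 and 13.5 CPM against 7.2, 7.17 and 6.28 CPM (-0.97 ± 0.18; edgeR adjusted p = 0.00274).

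Contractile and cytoskeletal genes were called higher for 2 and lower for 8 of 41. There were 4 higher without quiescent replicate 3 and 5 lower without irradiated replicate 1. MYL9, a myosin light chain, had 1288, 1326 and 1646 CPM in quiescent and 2076, 2102 and 2112 CPM in irradiated cells (0.56 ± 0.12; edgeR adjusted p = 0.00582). TPM2, a tropomyosin, had 3754, 3918 and 4386 CPM against 5301, 5763 and 5713 CPM (0.48 ± 0.10; edgeR adjusted p = 0.00731). TUBA1B, an alpha-tubulin with close copies, and PDLIM5, a scaffold on actin, fell by 0.71 and 0.69. VCL, vinculin of focal adhesions, fell by 1.12, from 317, 596 and 606 to 243, 247 and 209 CPM, a call lost with the block (adjusted p = 0.0516). Among fibroblast markers 2 were higher and 5 lower of 17 (11 lower without quiescent replicate 1, 3 without quiescent replicate 2 or 3 or irradiated replicate 1 or 3, and 1 higher without irradiated replicate 1 or 3, and 1 higher and 3 lower with the block). An abundant one was VIM, vimentin, at 8247, 9111 and 8797 CPM against 10752, 11769 and 11665 CPM (0.39 ± 0.09; edgeR adjusted p = 0.0108), a call lost with unstranded counts (adjusted p = 0.108). TWIST1, a transcription factor of mesenchyme, had 57.9, 40.7 and 51 CPM against 20.9, 18.9 and 23.7 CPM (-1.23 ± 0.19; edgeR adjusted p = 0.000674). KLF4, a transcription factor of growth arrest, had 25.4, 17.9 and 21 CPM against 10.2, 8.68 and 8.27 CPM (-1.23 ± 0.21; edgeR adjusted p = 0.00125).

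Footprint changes ran alongside mRNA changes. RNA-seq of total RNA from lysates of the same states called 2482 of 13304 genes (18.7%), 1197 higher (9%) and 1285 lower (9.66%). Without irradiated replicate 1, 2 or 3 it called 1542, 1438 and 1543. Over the 11726 genes tested in both assays, fold changes on the log2 scale correlated at r = 0.83 (Pearson) and rho = 0.78 (Spearman), given as a description across genes, which are not independent and come from the same libraries. Of 1698 genes called in Ribo-seq with an RNA-seq value, 1669 had the same sign in RNA and 1096 were also called with that sign, 64.5% of the Ribo-seq calls and 47.9% of the 2290 RNA-seq calls. In RNA 65 of 69 mitotic genes were lower (median -1.69), as were 48 of 51 histones (-2.26) and 33 of 45 replication genes (-0.80). NRF2 and ferritin genes were higher for 20 of 36 (0.53). CCND2 changed by 2.99 in RNA and by 3.01 in footprints, H2AC14 by -4.32 and -4.38, and CDKN1A by 1.27 and 1.26.

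**Figure D5:**
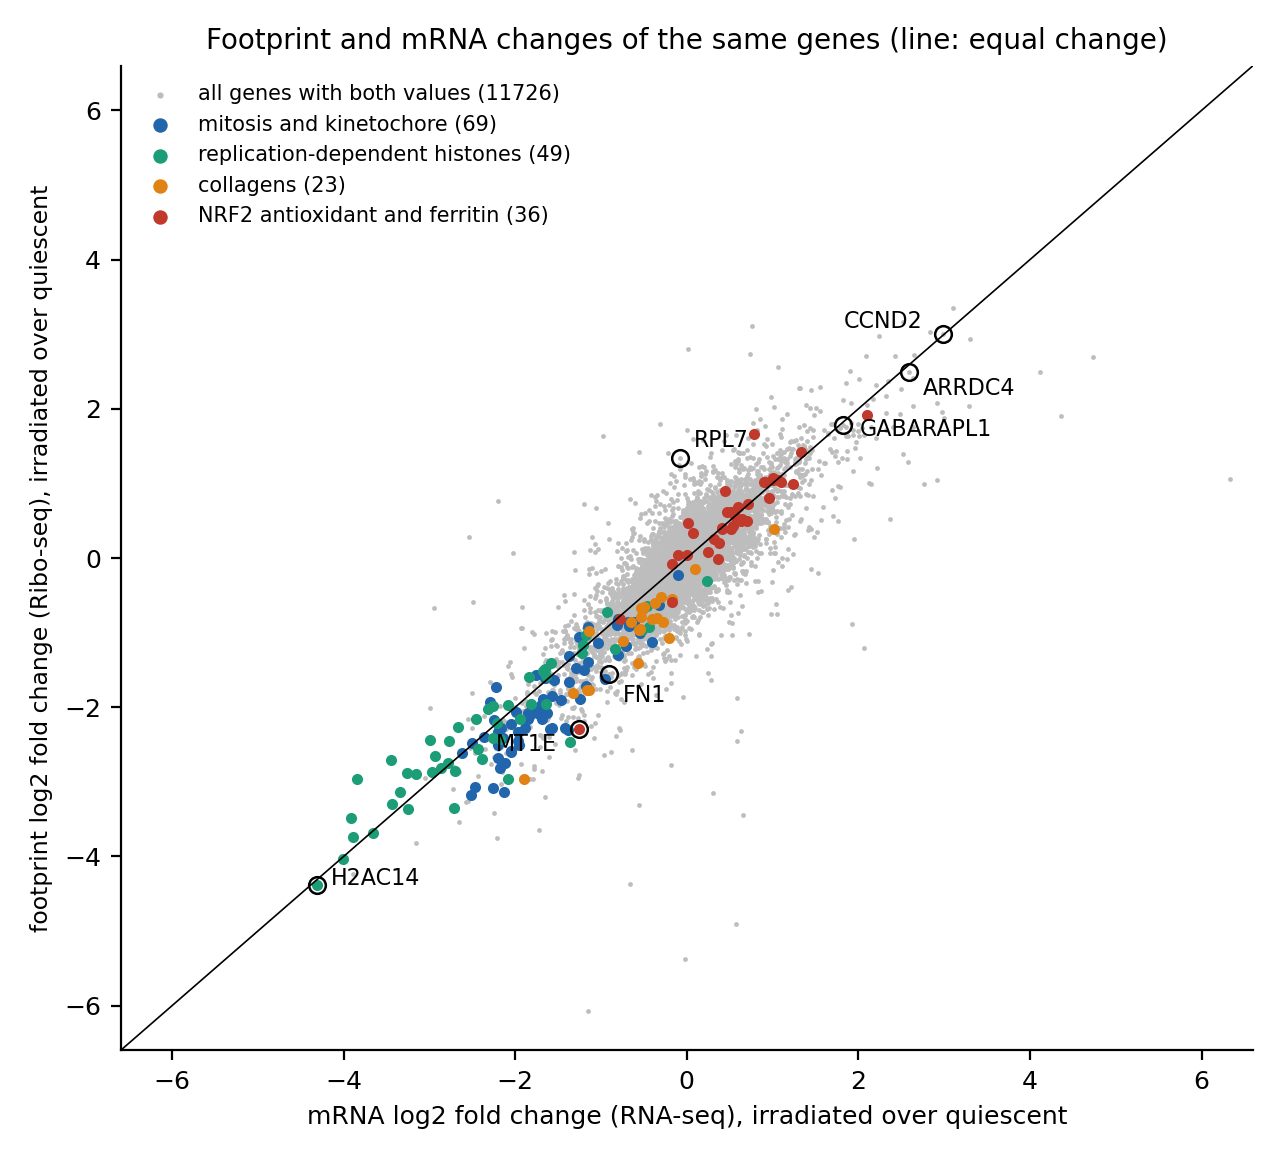
Log2 fold change of footprints against that of mRNA, irradiated over quiescent, for 11726 genes, with 4 lists in colour and a line of equal change. Most histone, mitotic, collagen and NRF2 genes lie near the line, and RPL7 lies above it.

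Translational efficiency, the ratio of footprints to mRNA, was tested as the interaction of assay and state over all 27 libraries. Of 11726 genes 1 was called by edgeR, in the higher direction (0.00853%), with 295 at an unadjusted p under 0.05. The count was 0 without quiescent replicate 2 or irradiated replicate 1 of Ribo-seq, or irradiated replicate 1 of RNA-seq (221, 255 and 265 genes at an unadjusted p under 0.05). It was 2 without quiescent replicate 1 and 3 without irradiated replicate 3 of Ribo-seq or quiescent replicate 2 of RNA-seq. The middle of the distribution was narrow, with quartiles at -0.18 and 0.14 and a median SE of 0.28 on the log2 scale. In simulated counts of the same depth the test recovered 41% of 2-fold and 87% of 4-fold changes of efficiency, so smaller changes of single genes could go unseen. The called gene was RPL7, a ribosomal protein of the large subunit, with a change of 1.44 ± 0.22 (edgeR adjusted p = 0.00936). Its footprints were 4.4, 5.14 and 7.58 CPM in quiescent and 15.8, 13.6 and 13.7 CPM in irradiated cells, while its mRNA was 1975, 1613 and 1796 CPM and 1605, 1774 and 1722 CPM. RPL7 has near-identical copies in the genome, and reads that map to several places are not in its count, so this value is uncertain. Medians of efficiency were -0.28 for mitotic genes, 0.06 for histones, -0.37 for collagens and -0.02 for NRF2 and ferritin genes, with 0 members called in each. CAD, the enzyme that starts pyrimidine synthesis, was called in footprints and not in mRNA. Its footprints were 109.5, 144 and 139 CPM against 60.0, 67.2 and 65.3 CPM (-1.03 ± 0.12; edgeR adjusted p = 6.35e-05) and its mRNA changed by -0.37 (RNA-seq adjusted p = 0.352). Its change of efficiency, -0.65, did not pass the test (edgeR adjusted p = 1).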

How the data were processed

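The authors deposited one table of whole-number read counts per library and gene, in 3 strand columns. Per the submitters' processing notes, STAR 2.7.10b, DESeq2 1.36.0, bcl2fastq and hg38 were used; their settings are not given in the sources used here. Per the labels' protocols, lysates held cycloheximide and were digested with RNase I, footprints of 25 to 40 nt were gel-purified, and the incubation time is given differently in different places. Forward-strand counts were used for Ribo-seq and reverse-strand counts for RNA-seq. In the 6 Ribo-seq libraries compared, the opposite strand held 3.59% to 4.22% of assigned reads, 23.0% to 27.4% of reads mapped to several places, and 14.6% to 34.7% were unmapped. Such reads, and reads on more than 1 gene, are in no gene's count and stayed out of library sizes.

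Of 60534 gene IDs shared by all libraries, 19314 matched a protein-coding gene by symbol in the RefSeq table (GRCh38.p14). Counts were filtered with filterByExpr and scaled by TMM, and tested in edgeR 4.0.16 (R 4.3.3) by the quasi-likelihood test with robust dispersion: Ribo-seq over 14 libraries, RNA-seq over 13, translational efficiency as an interaction over 27 on genes kept in both. The Ribo-seq biological coefficient of variation was 0.170. Each SE was derived from the test, as the size of the log2 fold change divided by the square root of its F statistic. On simulated counts with 200 changed genes among 11777, the Ribo-seq test called 76% of 2-fold and 98% of 4-fold changes. The changed genes were drawn only from those above a floor of mean counts. No simulated library was shifted for many genes at once, as quiescent replicate 1 was. Recovery for low genes, or with such a library, was not measured. Same-numbered irradiated and quiescent libraries deviated together from their group means (r = 0.13, 0.21 and 0.24 over 8651 genes). By a rule of every such r over 0.1 the numbers were treated as a possible pairing. The evidence for it is weak. Quiescent 2 and irradiated 1 also reached 0.21, above the 0.13 of the pair numbered 1, and the other differently numbered pairs were at -0.35 to -0.01. Calls and p-values come from fits on state alone unless the block is named. Nothing in the labels says what a number shares, and fits with the replicate number as a block are given where they change a call. Those block fits used only the libraries of the 2 compared groups, unlike the main fits. Alternatives were other scaling, filters, libraries, strand, depth and a DESeq2 1.42.0 test.

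The gene lists, the members and the tests were chosen with earlier results of these data known. Genes are named if they are among the 12 largest rises or falls of called genes whose groups do not overlap with a mean of at least 10 CPM in the higher group, index genes of a list, or a list's up to 4 largest called changes in each direction at that level; not every such gene is named. CENPA, MCM7 and CDT1 are named only for their promoter sequence.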

Additional observations from a re-analysis of the deposited data

How the results depend on the processing

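Of the 1705 Ribo-seq calls, 651 held in all 17 alternatives, 307 higher and 344 lower. A gene that an alternative did not test counted as not held. The filter at 10 CPM tested only 8755 genes and the thinned fits 10219. The Ribo-seq count ranged from 948 to 2383 when 1 library was left out and was 2571 in the 12 libraries without thapsigargin; the cause was not tested. Other settings gave 1146 (the 6 libraries alone, thinned to the lowest depth) to 1752 (all gene IDs), with 1631 by the DESeq2 test on the 6 libraries. Thinning with the replicate block gave 1310, against 1496 with the block alone. The RNA-seq count of 2482 ranged from 1438 to 2828 without 1 library, where fewer libraries entered the fit. In the RNA-seq libraries of the compared groups alone it was 1931, and 1882 with the replicate block added. The translational efficiency count of 1 ranged from 0 to 3 without 1 library. It stayed at 1 in the irradiated and quiescent libraries of both assays alone. There it was also 1 with another block, which joined the Ribo-seq and RNA-seq library of the same state and number. The count was 2 with DESeq2 size factors and 2 with TMM within each library type, a scaling chosen after seeing the data. Of 108 named genes called in Ribo-seq, 91 were called in every alternative, 17 lost the call in at least 1 and 0 changed sign. The replicate block changed no call other than those given beside the genes. Thinning alone took the calls of TFAP2B, FN1, HSPA5, CDKN1B, LTBP2, VCAN, CREB3L2 and ATP6V0D1 (edgeR adjusted p = 0.0513 to 0.175). Uncalled genes near 0 changed sign. PCNA was 0.014 with DESeq2 size factors and -0.12 to 0.074 without 1 library. LMNA was -0.013 with the 12 libraries and -0.014 to 0.092 without 1 library. CDKN2A ranged from -0.17 to 0.23 and IL6 from -0.15 to 0.60 without 1 library. The irradiated libraries had the fewest counts of the 6, which limits what could be called for genes of low level.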
